A study of Mus musculus with 12 samples.

Results

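Inava, Adssl1, Clu, Nuak1, Shisa4, Ptpru, Adgra1, Ogfrl1, Gas7 and Eps8 are 10 of the 54347 genes in the deposited count table. They were chosen from these data for a strong change with TGFB2, with or without BMP4, and a small spread between libraries. The values that chose them are therefore described without a test. Tests are given for BMP4 alone and for BMP4 on top of TGFB2, contrasts that the choice did not use. These tests share their libraries and their spread with the choice, so they are not independent of it. The difference between the TGFB2 effects with and without BMP4 was also tested. It is built from the contrasts that chose the genes, so its test is given as a description. All 10 genes were found in the table and passed the filter on low counts.

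The RNA came from PYMT cells, a mouse mammary tumour line named after the polyoma middle T antigen, grown in matrigel. There were 4 groups of 3 libraries: untreated cells (NT), cells given TGFB2, cells given BMP4, and cells given both ligands (BMP4-TGFB2). Each ligand was used at 5 ng/mL for 3 days, after which the medium was replaced and the cells were collected 2 days later. Below, words such as "with", "present", "adding" or "on top of" name the groups compared. They do not state which ligand was there at collection, nor an order of treatment. The labels call the replicates biological without saying what separated them, and every group rests on this single line. A p-value here therefore speaks only of the variation among these samples, which may be technical.

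TGFb and BMP ligands bind paired serine/threonine kinase receptors at the cell surface. TGFb receptors mainly phosphorylate SMAD2 and SMAD3, and BMP receptors mainly SMAD1, SMAD5 and SMAD9. Each set joins SMAD4, enters the nucleus and acts at target genes together with other factors. In mammary epithelium, TGFb is known as a growth inhibitor that also alters adhesion, matrix and the actin cytoskeleton.

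In the untreated cells the 10 genes ran from barely detected to well expressed. With TGFB2, 7 of them were higher and 3 (Ogfrl1, Gas7 and Eps8) were lower, in the absence of BMP4 and in its presence. Over all genes tested, 22.3% passed the test for TGFB2 against NT and 9.22% for BMP4-TGFB2 against BMP4, and libraries did not overlap in 38.5% and 28.3%; since these contrasts chose the 10 genes, nothing is read from their own counts. BMP4 alone moved 9 of the 10 past the test, against 5.44% of all genes. Of these, 6 went upward (3.19% of all genes) and 3 downward (2.25%). Their levels with BMP4 lay between those of NT and TGFB2. The choice favoured genes whose TGFB2 libraries stand apart from NT and from BMP4, so nothing is read from that position. Adgra1, in which 1 BMP4 library stood apart from the others, did not pass. Adding BMP4 to TGFB2 moved none of the 10 past the test, and 0.0% of all genes passed.

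RefSeq promoter entries (GRCm38.p6) matched 6 of the 10 genes: Inava, Adssl1, Nuak1, Shisa4, Ptpru and Adgra1. Clu, Ogfrl1, Gas7 and Eps8 had no entry. The 250 bases before the annotated start are shown for Nuak1, Adssl1 and Adgra1, because these held a sequence bound by SMAD proteins or by AP-1, a partner of SMADs at many targets. The Shisa4 promoter also held such a sequence, but its stretch overlaps an annotated transcript of the gene and is not shown. They run 5′ to 3′ on the gene's strand, and capitals mark the motif matches. The Nuak1 stretch is chr10:84440669-84440918 on the minus strand, that of Adssl1 is chr12:112619797-112620046 on the plus strand, and that of Adgra1 is chr7:139833924-139834173 on the plus strand. The last bases of the Adssl1 stretch also fall in the annotated gene, which starts at 112620045, while its motif match lies before the gene.
Nuak1: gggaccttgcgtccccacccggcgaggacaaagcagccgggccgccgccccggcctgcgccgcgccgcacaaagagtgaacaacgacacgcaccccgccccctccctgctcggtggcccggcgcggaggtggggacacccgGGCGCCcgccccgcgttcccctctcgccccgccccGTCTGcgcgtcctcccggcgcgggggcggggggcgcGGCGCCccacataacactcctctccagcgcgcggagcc
Adssl1: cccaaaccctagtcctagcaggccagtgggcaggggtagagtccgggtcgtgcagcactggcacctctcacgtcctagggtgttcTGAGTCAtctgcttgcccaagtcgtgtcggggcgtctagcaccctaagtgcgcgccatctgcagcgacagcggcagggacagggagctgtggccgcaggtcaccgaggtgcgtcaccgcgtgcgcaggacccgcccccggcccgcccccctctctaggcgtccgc
Adgra1: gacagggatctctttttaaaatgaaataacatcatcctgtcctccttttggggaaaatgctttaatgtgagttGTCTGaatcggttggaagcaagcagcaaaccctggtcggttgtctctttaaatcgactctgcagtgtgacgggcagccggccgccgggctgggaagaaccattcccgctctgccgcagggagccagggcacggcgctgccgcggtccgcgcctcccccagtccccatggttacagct

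Motifs were searched on both strands, and no matches in these 6 promoters overlapped. The short SMAD box CAGAC (read on the other strand as GTCTG) was found in Nuak1, Adgra1 and Shisa4, 3 of the 6. It occurs in 42.2% of the 32851 RefSeq promoters of this length. Its first base lay 74 bases before the start in Nuak1, 177 in Adgra1, and 195 and 89 in Shisa4. The GC-rich SMAD element GGCGCC occurred in Nuak1, at 109 and 38 bases before the start, against 9.59% of all promoters. The AP-1 site TGANTCA was found in Adssl1, as TGAGTCA 165 bases before the start, against 6.75%. The palindromic SMAD element GTCTAGAC (0.167% of all promoters), the E-box CACCTG bound by SNAI and ZEB factors (17.2%) and the TATA box TATAAA (12.4%) were in none of the 6. These matches describe the letters in this window and not binding. GC content ran from 56.4% in Adgra1 to 79.2% in Nuak1, against a median of 52.4% over all promoters.

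The libraries held from 28543062 to 42167651 counts. Summed levels of 9 luminal epithelial markers lay between 4571 and 5777 TPM (transcripts of a gene, scaled for its length, in every 1000000) in the 12 libraries, and those of 6 endothelial markers were at most 2.08 TPM. The luminal sum is carried by its most abundant genes, and its members did not all keep their level: mean Elf5, a luminal transcription factor, was 245 TPM in NT, 88.7 TPM with BMP4, 16.6 TPM with TGFB2 and 9.12 TPM with both. Among basal epithelial markers, all 7 of which had counts, the summed level was 184 to 410.1 TPM in NT, 942 to 1326 TPM with BMP4, 357 to 583 TPM with TGFB2 and 425 to 991 TPM with both. Most of this was the keratin Krt14, while Krt5 and Trp63 stayed under 1 TPM. The 8 leukocyte markers summed to 2.96 to 7.07 TPM in NT and 6.86 to 16.6 TPM in the other groups, with Ptprc at most 0.317 TPM. Mean Cd68 was 3.68 TPM in NT and 6.08 to 7.44 TPM in the other groups, and mean Csf1r 0.137 and 1.33 to 2.33 TPM. Not all 8 were higher: mean Lyz2 was 0.746 TPM in NT and 0.577 TPM with BMP4. The 7 fibroblast markers summed to 2.11 to 7.8 TPM in NT, 2.25 to 12.3 TPM with BMP4, 7.65 to 13.1 TPM with TGFB2 and 4.45 to 13.4 TPM with both. No marker was at 0 in all libraries. The part of these markers in the levels below was not tested. In such bulk samples, fewer cells of a type and less RNA per cell cannot be told apart.

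Levels below are in CPM, the counts of a gene in every 1000000 of the TMM-scaled library size, and are compared only within a gene. The plot of levels by library shows every value.

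**Figure D1:**
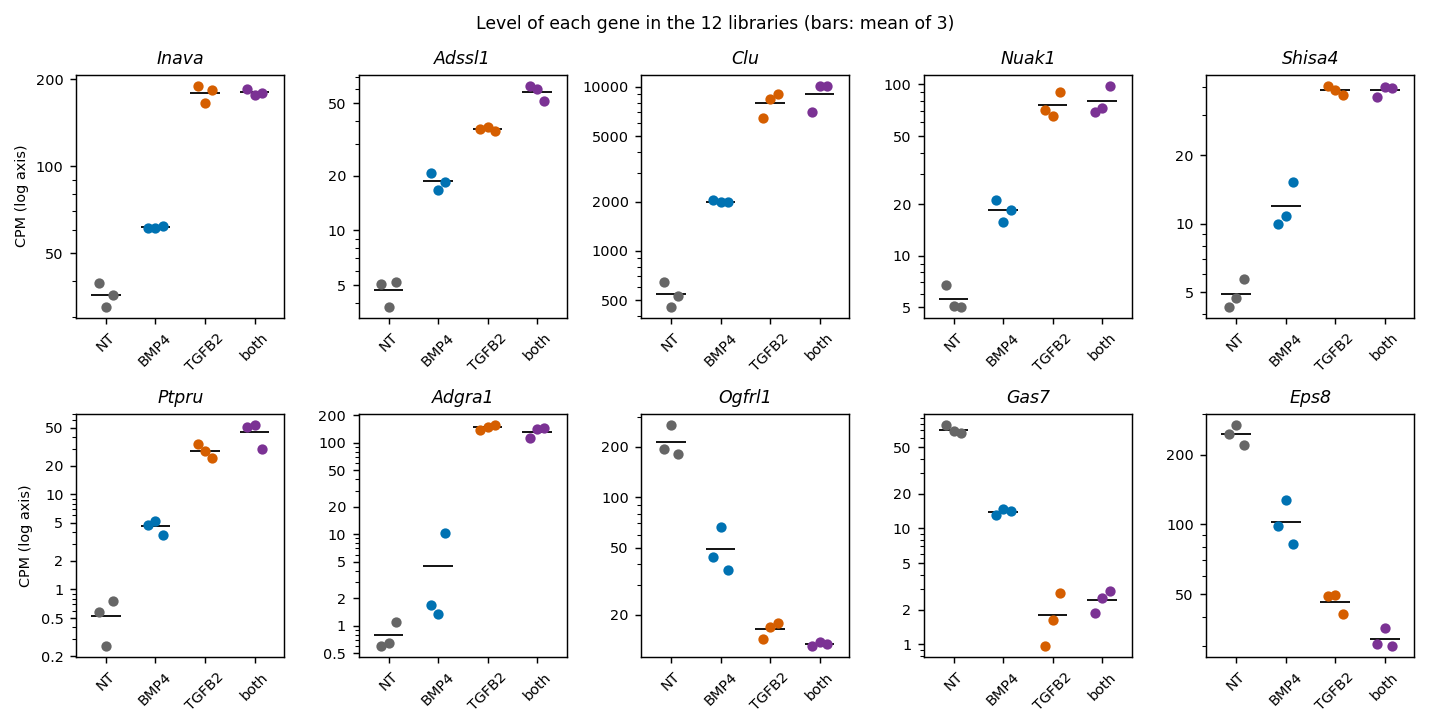
Level of each of the 10 genes in the 12 libraries, in CPM on a log axis that differs between panels; points are libraries, bars are means of 3, and "both" is BMP4-TGFB2. In each panel the BMP4 libraries lie between the NT libraries and the 6 libraries that received TGFB2. The choice favoured genes whose TGFB2 libraries stand apart from NT and from BMP4.

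Ptpru encodes a receptor tyrosine phosphatase of the group that contains PTPmu, with an extracellular part built for adhesion between cells. The gene (ENSMUSG00000028909.17) is at 131768457 to 131838288 on chromosome 4, minus strand, in GRCm38 as annotated by GENCODE M21. It gave 0.575, 0.255 and 0.75 CPM in the NT libraries, from 9 to 25 counts, and 4.79, 5.28 and 3.7 CPM with BMP4. The TGFB2 libraries gave 33.5, 28.7 and 23.9 CPM and those with both ligands 50.8, 53.6 and 30.2 CPM. All 6 libraries with TGFB2 exceeded the BMP4 libraries, which exceeded NT, while TGFB2 and BMP4-TGFB2 overlapped. The fitted TGFB2 fold was 54.3 without BMP4 and 9.77 with it. BMP4 alone raised Ptpru 8.69-fold, a log2 fold change of 3.12 ± 0.35 (SE; edgeR adjusted p = 0.000922).

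Adgra1, an orphan adhesion G protein-coupled receptor, showed the widest range. It lies on the plus strand of chromosome 7 at 139834174 to 139878088 (ENSMUSG00000025475.17). NT libraries had 0.601, 0.652 and 1.11 CPM, from 23 to 37 counts. The TGFB2 libraries had 139, 149 and 157 CPM, and the libraries with both ligands 112, 140.1 and 144 CPM. Every library with TGFB2 was thus far above every library without it. The fitted fold was 189 without BMP4 and 29.9 with it. With BMP4 alone the values were 1.7, 1.36 and 10.3 CPM: replicate 3 stood apart, and the SD of 5.04 exceeded the mean of 4.44 CPM. The log2 fold change of BMP4 against NT was 2.49 ± 0.67 and did not pass (edgeR adjusted p = 0.0535). Without BMP4 replicate 3 the Adgra1 log2 fold change was 0.97 (adjusted p = 0.0737). It passed without BMP4 replicate 1 (0.0337) or replicate 2 (0.0272), with DESeq2 (0.000504) and with the replicate number as a block (0.027), and the adjusted p ranged from 4e-15 to 0.281 over 21 alternatives.

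Shisa4 encodes a small single-pass membrane protein of the SHISA family. It is on the minus strand of chromosome 1 at 135371057 to 135375237 (ENSMUSG00000041889.7). NT libraries gave 4.31, 4.7 and 5.7 CPM, and BMP4 libraries 9.96, 10.8 and 15.3 CPM. With TGFB2 the level was 40.6, 39.0 and 36.8 CPM, and with both ligands 36.1, 40.1 and 39.7 CPM. The last pair of groups had means of 38.8 ± 1.87 and 38.6 ± 2.22 CPM (SD, n = 3) and overlapped, whereas NT, BMP4 and the TGFB2 groups were separate. Fitted TGFB2 folds were 7.91 and, with BMP4 present, 3.21. BMP4 alone raised Shisa4 by 1.29 ± 0.18 on the log2 scale (edgeR adjusted p = 0.00208).

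Clu encodes clusterin, a secreted chaperone glycoprotein found in milk, plasma and other fluids. The gene (ENSMUSG00000022037.15) spans 65968483 to 65981547 on the plus strand of chromosome 14. Its level was 643, 457 and 534 CPM in NT and 2049.8, 1979 and 1975 CPM with BMP4. TGFB2 libraries had 6437, 8401 and 9026 CPM, and libraries with both ligands 7016, 10069 and 10194 CPM. The groups with and without TGFB2 did not overlap, and replicate 1 was the lowest library in each group with TGFB2. By mean TPM, Clu ranked 305 among all genes in NT, 80 with BMP4, 4 with TGFB2 and 2 with both, where it took 0.7% to 1.01% of all counts. TGFB2 libraries stood 14.6-fold above NT, and BMP4-TGFB2 libraries 4.54-fold above BMP4. BMP4 alone raised Clu 3.67-fold (log2 1.88 ± 0.19, edgeR adjusted p = 0.000512).

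Nuak1 encodes a serine/threonine kinase related to AMPK that is activated by LKB1 and acts on the myosin phosphatase. It lies on the minus strand of chromosome 10 at 84370905 to 84440597 (ENSMUSG00000020032.14). Values were 6.71, 5.07 and 5.04 CPM in NT and 21.2, 15.7 and 18.5 CPM with BMP4. They were 70.6, 65.3 and 90.5 CPM with TGFB2 and 69.1, 73.1 and 98.5 CPM with both. Replicate 3 was the highest library in each group with TGFB2, and these groups overlapped each other only. The fitted fold was 13.4 for TGFB2 alone against NT and 4.34 in the presence of BMP4. BMP4 alone raised Nuak1 by 1.72 ± 0.20 on the log2 scale (edgeR adjusted p = 0.000983).

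Inava encodes an adaptor that binds cytohesins, the exchange factors of ARF GTPases, and acts at epithelial junctions and in innate immune signalling. It is on the minus strand of chromosome 1 at 136213531 to 136234264 (ENSMUSG00000041605.16). Its libraries were the most alike: 39.4, 32.7 and 35.9 CPM in NT, and 61.4, 61.2 and 62.3 CPM with BMP4. They were 190.3, 165 and 184 CPM with TGFB2, and 185, 177 and 179.8 CPM with both. The coefficient of variation within BMP4 was 0.93%, and the groups with TGFB2 overlapped each other only. TGFB2 gave a 4.99-fold higher level without BMP4 and a 2.93-fold higher level with it. The BMP4 effect was the smallest of the 10, a 1.71-fold rise (log2 0.78 ± 0.10, edgeR adjusted p = 0.00184). Inava shares 1594 exonic bases with the antisense gene Gm26568, and library strand was not kept, but that gene had 12 counts in all libraries together.

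Adssl1 encodes the muscle form of adenylosuccinate synthase, which commits IMP to the making of AMP and takes part in the purine nucleotide cycle. The gene (ENSMUSG00000011148.14) is at 112620045 to 112641360 on the plus strand of chromosome 12. NT libraries gave 5.09, 3.8 and 5.19 CPM, and BMP4 libraries 20.8, 16.7 and 18.5 CPM. The level was 36.1, 37.1 and 35.3 CPM with TGFB2 and 62.6, 60.0 and 51.2 CPM with both ligands. Adssl1 was the only riser of the 7 whose 4 groups were all separate. Fitted TGFB2 folds were 7.7 and 3.1, without and with BMP4. BMP4 alone raised it 3.98-fold (log2 1.99 ± 0.15, edgeR adjusted p = 0.000243). The summed level of 7 striated muscle markers, 65.6 to 189.5 TPM, overlapped between all groups.

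Eps8 encodes a protein that caps and bundles actin filaments and, with ABI1 and SOS1, activates RAC. It is on the minus strand of chromosome 6 at 137477245 to 137654876 (ENSMUSG00000015766.14). NT libraries had 245, 269 and 221 CPM, and BMP4 libraries 98.1, 128 and 82.1 CPM. TGFB2 libraries had 49.0, 49.4 and 41.0 CPM, and those with both ligands 30.5, 35.8 and 29.9 CPM. In CPM the 4 groups did not overlap, and the libraries with both ligands were the lowest. In TPM the highest library with both ligands (18.2) exceeded the lowest with TGFB2 (16.8). Eps8 was 5.27-fold lower with TGFB2 than in NT, and 3.2-fold lower with both ligands than with BMP4. With BMP4 alone it fell by 1.25 on the log2 scale (SE 0.17, edgeR adjusted p = 0.00177).

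Gas7 encodes an F-BAR protein, of the kind that binds curved membranes, and it also binds actin. It spans 67455437 to 67688990 on the plus strand of chromosome 11 and was matched to the annotation without the version of its identifier (ENSMUSG00000033066.16). It had 78.2, 69.5 and 66.2 CPM in NT and 13.0, 14.6 and 14.1 CPM with BMP4. It had 0.97, 1.64 and 2.8 CPM with TGFB2, from 41 to 101 counts, and 1.85, 2.53 and 2.88 CPM with both. The groups with TGFB2 overlapped each other and were far below the rest. Fitted levels were 39.7-fold lower with TGFB2 than in NT and 5.76-fold lower with both ligands than with BMP4. With BMP4 alone Gas7 fell by 2.36 on the log2 scale (SE 0.29, edgeR adjusted p = 0.00131). It shares 66 exonic bases with Glp2r, which had 13 counts in all libraries together.

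Ogfrl1 encodes a protein that resembles the opioid growth factor receptor and whose function is little known. It is on the minus strand of chromosome 1 at 23366424 to 23397772 (ENSMUSG00000026158.11). Its level was 194, 270.3 and 181 CPM in NT and 44.1, 66.6 and 37.0 CPM with BMP4. It was 14.3, 16.9 and 17.7 CPM with TGFB2 and 13.0, 13.7 and 13.4 CPM with both. All 4 groups were separate in CPM, though the highest library with both ligands and the lowest with TGFB2 were close. In TPM the former (8.31) exceeded the latter (6.92). Ogfrl1 was 13.2-fold lower with TGFB2 than in NT, and 3.68-fold lower with both ligands than with BMP4. With BMP4 alone it fell by 2.13 on the log2 scale (SE 0.22, edgeR adjusted p = 0.000536).

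On the scale that allows comparison between genes, mean TPM, Clu was the highest of the 10 in every group, with 514 ± 106 TPM in NT and 7379 ± 1512 TPM with TGFB2 (SD, n = 3). In NT it was followed by Ogfrl1 at 117 ± 23.8 TPM, Eps8 at 104 ± 8.9 TPM and Inava at 27.2 ± 2.83 TPM. Ptpru and Adgra1 were the lowest there, at 0.19 ± 0.119 and 0.256 ± 0.091 TPM. With TGFB2, Inava came after Clu at 145 ± 15.1 TPM, then Adgra1 at 48.6 ± 4.49 TPM and Shisa4 at 39.3 ± 0.645 TPM. Gas7 was the lowest with TGFB2, at 0.739 ± 0.578 TPM. The lowest places in NT were thus held by genes that were higher with TGFB2, and Ogfrl1 and Eps8 left the top of the order.

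For BMP4 alone, 9 of the 10 genes passed the edgeR test (adjusted p under 0.05), against 5.44% of the 15319 genes tested. Of these, 6 rose, against 3.19% of all genes, and 3 fell, against 2.25%. The median absolute log2 fold change was 1.93 for the 10 and 0.26 for all genes. BMP4 and NT libraries did not overlap in 10 of 10 genes, against 23.8% of all genes. In all 10 genes every BMP4 library also lay between every NT library and every library with TGFB2, as in 4.4% of all genes. The choice itself favoured genes whose TGFB2 libraries stand apart from NT and from BMP4, so nothing is read from that last count. Both comparisons of BMP4 and of TGFB2 with NT use the same NT libraries. The BMP4 libraries also entered the choice, through BMP4-TGFB2 against BMP4. In addition, the genes were chosen partly for their small spread. These p-values are therefore too small for those with a small spread. That reason may not hold for Gas7, Ptpru and Adgra1, whose spread was above the median of all genes. The 9 calls held in all 21 alternatives, and the highest adjusted p was 0.0476, for Ptpru with limma on log2(TPM + 1). The share of all genes depended on the method. DESeq2 called 1562 genes, limma voom 815 and edgeR with the replicate block 2356, against 833 without the block. DESeq2 and the block each called all 10 members of the set.

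**Figure D2:**
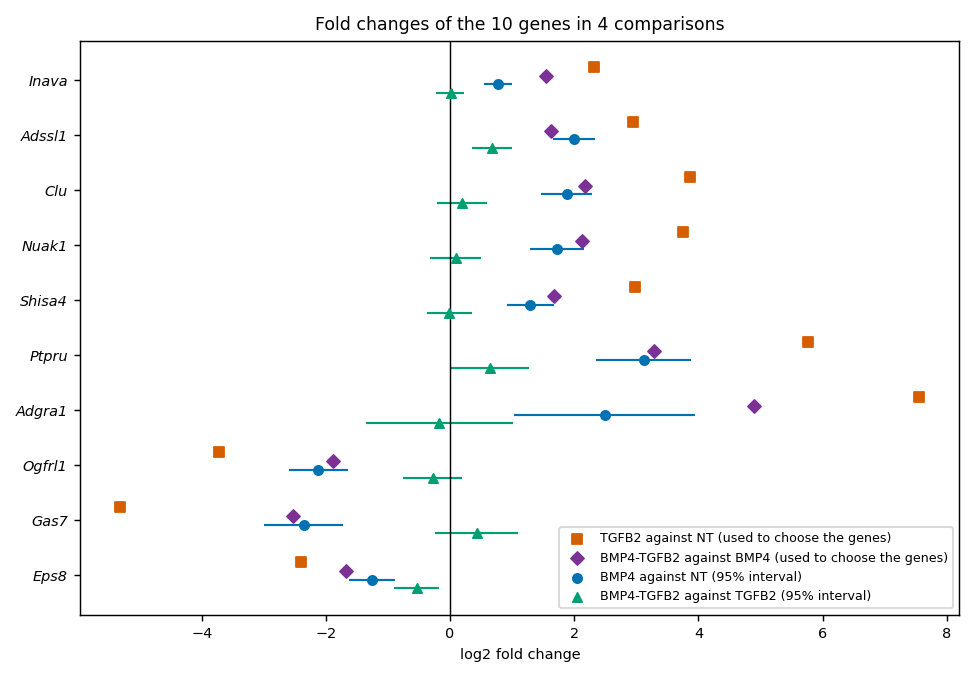
Log2 fold changes of the 10 genes: TGFB2 against NT and BMP4-TGFB2 against BMP4, which chose the genes, beside BMP4 against NT and BMP4-TGFB2 against TGFB2, with 95% intervals from edgeR for the tested contrasts. With BMP4 alone 7 genes lie above 0 and 3 below, and for BMP4-TGFB2 against TGFB2 the intervals of all but Adssl1, Ptpru and Eps8 include 0. A small spread helped to choose the genes, so the intervals are too narrow for those with a small spread.

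In cells given TGFB2, BMP4 changed none of the 10 past the edgeR test, and 0.0% of all genes passed. At an unadjusted p under 0.05 there were 3 of the 10 and 516 of all genes. DESeq2 called 51 genes, and limma voom called 0. With the replicate number as a block, edgeR called 6 genes and none of the 10. The 3 genes with a low unadjusted p were Adssl1, Eps8 and Ptpru. The Adssl1 difference was 0.68 ± 0.14 on the log2 scale (SE, unadjusted p = 0.000592, edgeR adjusted p = 0.432). Adssl1 was the 1 gene of the 10 that DESeq2 called (adjusted p = 0.00459), and its adjusted p ran from 0.00459 to 1.0 over the alternatives. Eps8 differed by -0.54 (95% interval -0.90 to -0.18) and Ptpru by 0.64 (0.02 to 1.27), both with an edgeR adjusted p of 1.0. A small spread helped to choose the genes. The p-values here are thus too small and the intervals too narrow, at least for Adssl1 and Eps8. In CPM, TGFB2 and BMP4-TGFB2 libraries did not overlap for 3 of the 10 genes, Adssl1, Eps8 and Ogfrl1, against 6.77% of all genes. In TPM, these libraries overlapped for Eps8 and Ogfrl1 and stayed separate for Adssl1.

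For the other 7 genes the 95% intervals were as follows. Since a small spread helped to choose the genes, these intervals are too narrow for them. That reason may not hold for Gas7 and Adgra1, whose spread was above the median of all genes. The intervals were narrowest for Inava, at 0.01 (-0.22 to 0.23), and Shisa4, at -0.01 (-0.37 to 0.36). Nuak1 had 0.09 (-0.32 to 0.50), Clu 0.19 (-0.21 to 0.60) and Ogfrl1 -0.28 (-0.75 to 0.19). The interval was wider for Gas7, at 0.43 (-0.24 to 1.10), and widest for Adgra1, at -0.17 (-1.35 to 1.01). A 2-fold difference, which is 1 on the log2 scale, lay inside the intervals of Gas7 and Adgra1 and outside the other 5 as computed.

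The fitted TGFB2 effect was smaller in the presence of BMP4 for each of the 10 genes. The difference is built from both contrasts that chose the genes, and from their spread, so its test is not independent of the choice and the values are given as a description. This difference of log2 fold changes passed the edgeR test for 5 of 10, against 0.157% of all genes, with 3 lower (0.104% of all genes) and 2 higher (0.0522%), and nothing is read from that count. For the risers it was -1.31 ± 0.21 in Adssl1 (adjusted p = 0.0396), -1.68 ± 0.26 in Clu (0.0396) and -1.63 ± 0.27 in Nuak1 (0.0478). For the genes lower with TGFB2 it was 2.78 ± 0.42 in Gas7 (0.03) and 1.84 ± 0.30 in Ogfrl1 (0.0452). The other differences were -0.77 in Inava, -1.30 in Shisa4, -2.48 in Ptpru, -2.66 in Adgra1 and 0.72 in Eps8, with adjusted p between 0.0662 and 0.363. These calls were near the threshold. Leaving out any 1 of the 12 libraries left 0 to 2 of them, limma voom called 2, and DESeq2 called 9.

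The 10 genes were not alike in spread. The within-group SD of log2 CPM, pooled over the 4 groups, was 0.09 in Inava, at percentile 2.42 of all genes tested, and 0.17 in Adssl1 (percentile 20.1). It was 0.2 in Shisa4, 0.21 in Eps8, 0.24 in Clu and Nuak1, and 0.28 in Ogfrl1, all under the median of 0.31. Gas7 at 0.41 (percentile 60.9), Ptpru at 0.46 (64.7) and Adgra1 at 0.82 (86.4) were above it, so a small spread does not describe these 3. All 3 have a group at a few CPM or less, and their fold changes were the largest of the 10.

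**Figure D3:**
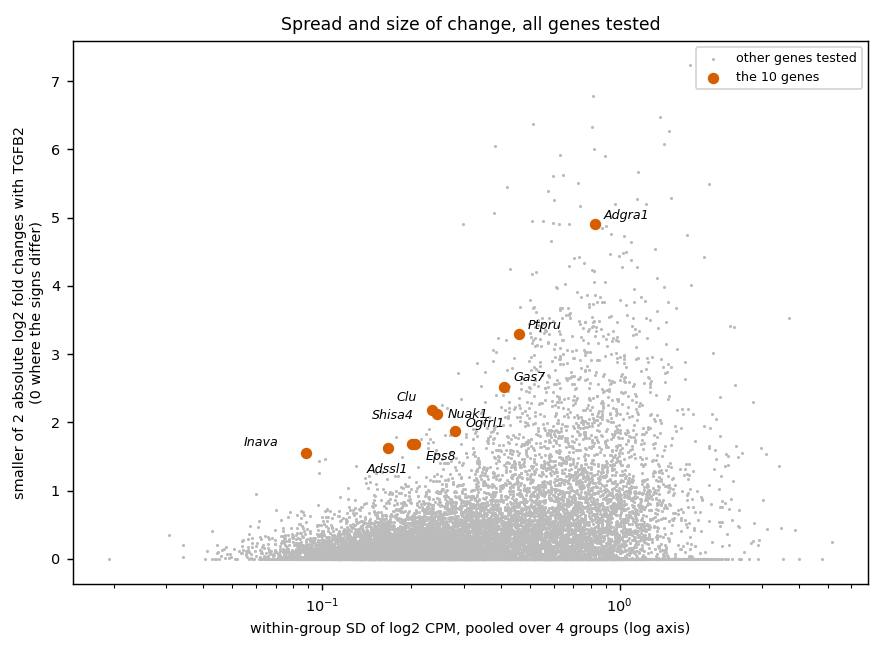
Pooled within-group SD of log2 CPM (log axis) against the smaller of the absolute log2 fold changes for TGFB2 without and with BMP4, for all 15319 genes tested; the 10 genes are named. Inava has the smallest spread of the 10 and Adgra1 the largest change and spread.

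The choice had no stated threshold. Ranked by the larger of both TGFB2 p-values, Inava was 1 among all genes, Clu 7, Adssl1 11, Nuak1 12, Ptpru 15, Eps8 23, Shisa4 27, Ogfrl1 49, Gas7 55 and Adgra1 92. Hence 82 of the first 92 genes are not among the 10. Just beside Inava stood Bmp1, a procollagen protease, with log2 fold changes of 2.41 without and 1.46 with BMP4, and Ltf, the milk protein lactoferrin, with -6.82 and -4.25. Shisa4 and Inava are 838 kb apart on chromosome 1. Of 11 genes tested between them, 3 rose with TGFB2 alone and 2 with BMP4 alone, against 11.3% and 3.19% of all genes. With TGFB2 on top of BMP4 1 rose, against 4.24%, and the median log2 fold change of the 11 was -0.01. None fell, against 11.1% of all genes with TGFB2, 2.25% with BMP4 and 4.98% with TGFB2 on top of BMP4.

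Over the 12 libraries, several genes followed the mean profile of the 10 closely. By Pearson's r of log2 CPM these were St8sia6, a sialyltransferase (r = -0.992), the glypican Gpc1 (0.991), gephyrin, Gphn (-0.990), Ltf (-0.989) and Wdr91 (0.989). Gpc1 went from 36.8 ± 10.4 CPM in NT to 118 ± 47.4 CPM with BMP4, 623 ± 27.3 CPM with TGFB2 and 681 ± 73.7 CPM with both (SD, n = 3). St8sia6 went from 87.9 ± 13.5 to 12.1 ± 4.02, 1.66 ± 0.834 and 0.931 ± 0.204 CPM in the same order. For single genes the closest were Cldnd1 for Inava (0.994), Flywch1 for Adssl1 (0.988), Cacnb3 for Clu (0.995), Wdr91 for Nuak1 (0.989) and Gpc1 for Shisa4 (0.996). They were Wnt7b for Ptpru (0.993), Mamdc2 for Adgra1 (0.992), Gphn for Ogfrl1 (0.990), Wwc1 for Gas7 (0.991) and Rasal1 for Eps8 (0.992). These correlations mostly reflect the differences between the 4 groups and are given as a description.

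The known ligand responses were read from lists of target genes. Of 26 genes of the SMAD2/3 response, 17 rose and none fell with TGFB2 alone, where 11.3% of all genes rose, and the list's median log2 fold change was 1.4 against 0.01 for all genes. With BMP4 present, 7 rose with TGFB2, against 4.24% of all genes, and none fell, against 4.98%. With BMP4 alone 12 rose and 1 fell, against 3.19% and 2.25%. Pmepa1, a feedback inhibitor of SMAD2/3 signalling, rose in all 3 contrasts: 2.24 ± 0.14 on the log2 scale with TGFB2, 0.77 ± 0.13 with TGFB2 on top of BMP4, and 1.46 ± 0.13 with BMP4 alone (edgeR adjusted p = 5.29e-06, 0.00462 and 0.000273). Bhlhe40, a transcriptional repressor, rose by 1.92 ± 0.19 with TGFB2 and 1.60 ± 0.19 with TGFB2 on top of BMP4 (adjusted p = 6.14e-05 and 0.000717), and its BMP4 value was 0.52 ± 0.18 (adjusted p = 0.143). The inhibitory SMAD Smad7, which is on both response lists, rose by 1.63 ± 0.14 with TGFB2 and 1.57 ± 0.14 with BMP4 (adjusted p = 3.12e-05 and 0.000243). Without BMP4 replicate 1 the 7 calls were 5, and with the replicate block they were 14.

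Of 19 genes tested from the BMP SMAD1/5 response, 12 rose and none fell with BMP4 alone, where 3.19% of all genes rose and 2.25% fell, and the list median was 1.57. With any 1 library left out these 12 became 4 to 10, fewest without NT replicate 2, and with the replicate block 15. With TGFB2 alone 4 rose and 2 fell, against 11.3% and 11.1% of all genes, and with TGFB2 on top of BMP4 1 rose and 4 fell, against 4.24% and 4.98% (1 to 4 fell with any 1 library left out). Smad6, the inhibitory SMAD of the BMP branch, rose by 2.81 ± 0.25 with BMP4 and 1.48 ± 0.24 with TGFB2 (edgeR adjusted p = 0.000243 and 0.00126). The BMP target Atoh8, a transcription factor, fell with TGFB2 by 2.10 on the log2 scale (SE 0.36, adjusted p = 0.00186) and with TGFB2 on top of BMP4 by 1.96 (SE 0.36, adjusted p = 0.00603). The ligands thus moved Atoh8 in different directions from NT, since with BMP4 it rose by 1.44 ± 0.35 (adjusted p = 0.0363), a call lost without NT replicate 1 or 2 or any 1 BMP4 library (Atoh8 adjusted p up to 0.154).

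The families and pathways of the 10 genes were read in the same way, leaving out the 10 themselves. Over all genes tested, 11.3% rose and 11.1% fell with TGFB2 alone, 4.24% and 4.98% with TGFB2 on top of BMP4, and 3.19% and 2.25% with BMP4 alone. The lists are short, and their counts below are descriptions to be set against these shares. Among the cell-surface families, Ptprm, 1 of 3 tested relatives of Ptpru, rose with TGFB2 by 1.78 ± 0.32 (edgeR adjusted p = 0.00261) and the others did not pass. Of 19 tested adhesion receptors other than Adgra1, 3 rose and 6 fell with TGFB2, and 3 rose with BMP4. Adgrg6 fell with TGFB2 by 1.91 (SE 0.29, adjusted p = 0.000757) and by the same amount on top of BMP4 (adjusted p = 0.0023). Adgrf4 rose by 2.19 ± 0.37 with TGFB2 and 2.95 ± 0.38 with BMP4 (adjusted p = 0.00171 and 0.00161). The 3 rises with BMP4 became 1 to 3 with any 1 library left out, fewest without NT replicate 2. Of 4 tested SHISA genes other than Shisa4, 2 fell with TGFB2: Shisa7 and Shisa8, whose NT means were 1.21 ± 0.879 and 0.749 ± 0.161 CPM. Their calls were lost without the replicate 1 libraries (adjusted p = 0.0809 for Shisa7 and 0.0511 for Shisa8).

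Among the relatives of the secreted and signalling proteins, the clusterin receptor family gene Lrp1, an endocytic receptor, rose with TGFB2 by 2.34 ± 0.25 (edgeR adjusted p = 0.000105), and the other 7 genes of that list did not pass. With TGFB2 on top of BMP4 it rose by 1.15 ± 0.24 (adjusted p = 0.0132) and with BMP4 alone by 1.10 ± 0.24 (0.024). The former Lrp1 call was lost without BMP4 replicate 1 (0.055) or 2 (0.0585), and the latter without either NT replicate 2 (0.0812), NT replicate 3 (0.0797), BMP4 replicate 2 (0.0632) or BMP4 replicate 3 (0.0884). Of 18 AMPK-related kinases and partners tested, 2 rose and 3 fell with TGFB2 and none passed with BMP4. Sik1 fell by 0.77 (SE 0.18, adjusted p = 0.00971), and Nuak2, the closest relative of Nuak1, rose with TGFB2 on top of BMP4 by 0.65 ± 0.13 (adjusted p = 0.00903). With any 1 library left out 0 to 3 of these kinases rose with TGFB2 alone, fewest without NT replicate 2. Of 8 cytohesins and relatives of Inava, 3 rose and 1 fell with TGFB2, among them Ccdc120, a CUPID domain protein like Inava, by 0.94 ± 0.18 (adjusted p = 0.00318). These 3 rises became 1 to 3 with any 1 library left out, again fewest without NT replicate 2.

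The lists around Adssl1, Eps8, Gas7 and Ogfrl1 held 1 to 18 tested genes. Of 17 other genes of purine synthesis and the purine nucleotide cycle, 1 rose and 2 fell with TGFB2 (0 to 4 fell with any 1 library left out). Ampd2, an AMP deaminase, was among them, with -0.42 ± 0.12 (edgeR adjusted p = 0.0296), a call lost without any 1 NT library or without TGFB2 replicate 1 or 2 (Ampd2 adjusted p up to 0.109). Paics, a synthesis enzyme, had 0.57 ± 0.11 with BMP4 (adjusted p = 0.0144), lost on leaving out NT replicate 2 (0.0794), BMP4 replicate 1 (0.051) or BMP4 replicate 2 (0.0504). Of 11 relatives and partners of Eps8, Baiap2, which shapes membranes at actin-rich protrusions, fell with TGFB2 by 0.56 (SE 0.10, adjusted p = 0.00174) and was the 1 gene that passed. The capping protein subunit Capzb had 0.57 ± 0.13 with BMP4 (adjusted p = 0.0288), lost without any 1 NT library (at most 0.115) or BMP4 replicate 1 (0.103). Of 18 other F-BAR genes, 1 rose and 2 fell with TGFB2 (1 to 3 rose with any 1 library left out). Pstpip1 rose by 0.88 ± 0.15 (adjusted p = 0.00176), and Fchsd2 fell by 0.90 (SE 0.16, adjusted p = 0.00258) with TGFB2 and by 0.92 (SE 0.16, adjusted p = 0.00891) with BMP4. Arhgap29 fell by 1.09 with TGFB2 (SE 0.26, adjusted p = 0.0126). Ogfr, the receptor that Ogfrl1 resembles, fell with TGFB2 by 1.19 (SE 0.18, adjusted p = 0.000742), and its BMP4 value was -0.51 ± 0.18 (adjusted p = 0.129).

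**Figure D4:**
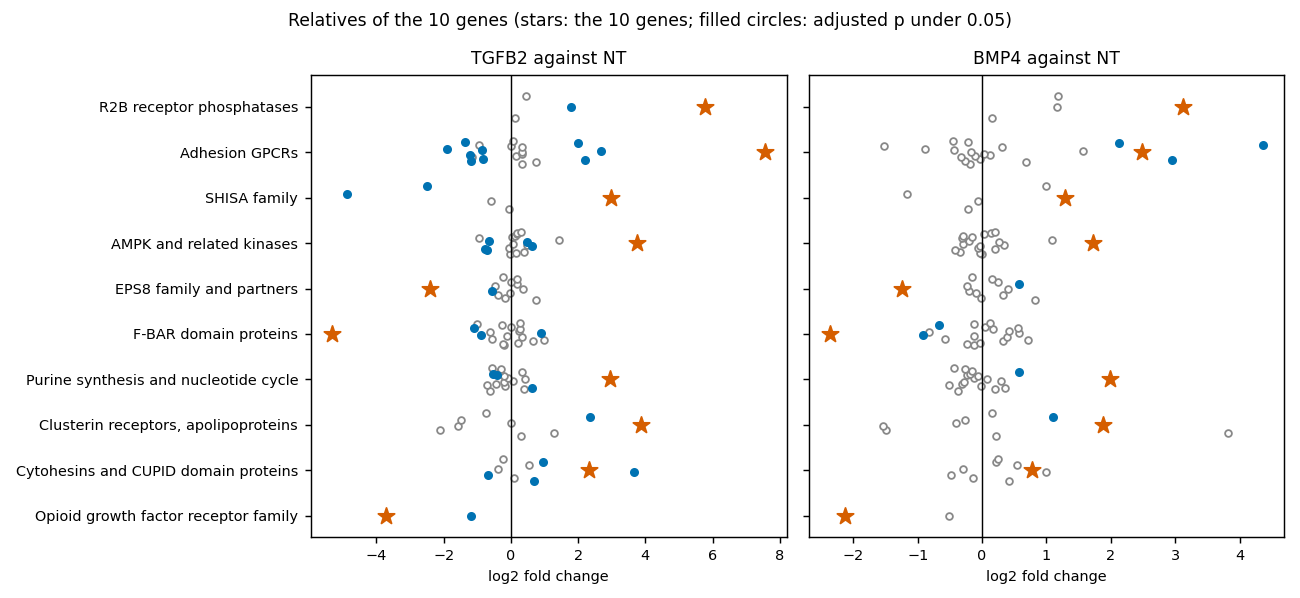
Log2 fold changes of the 10 genes beside those of the tested genes of their families or pathways, for TGFB2 against NT and BMP4 against NT. Stars are the 10 genes, filled circles are relatives with an edgeR adjusted p under 0.05 and open circles the other relatives; most relatives are open circles near 0.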

How the data were processed

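RNA was sequenced from 12 libraries in 4 groups of 3. The submitters' processing notes name Salmon 1.2.1, STAR 2.7.5b, bcl2fastq 2.17 and the genome GRCm38.p6. What each tool did, and how it was set, is not given in the sources used here. Per the file headers the deposited values were Salmon's estimated counts for each gene, 82.9% of all values whole within 1e-09 (zeros included; 53.8% of the values above 0), and TPM, which the authors scaled for length and depth. Counts were rounded, which changed the total by 0.000361%. Of 54347 genes, 15319 passed filterByExpr of edgeR 4.0.16 (minimum count 10) in R 4.3.3. They held 99.9% of all counts. TMM factors were 0.971 to 1.03.

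Groups were compared by edgeR's quasi-likelihood test, with all 12 libraries in 1 model by group, adjusted by Benjamini-Hochberg over all genes tested, at a threshold of 0.05. The SE of a log2 fold change is its size divided by the square root of the F statistic. Log2 CPM used a prior count of 2. Alternatives were DESeq2 1.42.0, limma voom (limma 3.58.1), DESeq2 size factors, no filter, only the groups compared, the replicate number as a block, each library left out, the replicate 1 libraries left out, a likelihood ratio test with trended dispersion, and limma on log2(TPM + 1). Same-numbered libraries deviated together between NT and BMP4 (r = 0.16 to 0.44), between BMP4 and BMP4-TGFB2 (0.15 to 0.35) and between TGFB2 and BMP4-TGFB2 (0.23 to 0.5). Between NT and TGFB2 r was 0.08 to 0.3. The numbers were taken to pair libraries in the alternative with a block, with no stated cut-off on r. The model by group, which gave the p-values and SEs unless another method is named, leaves this pairing out. No replicates agreed within sampling noise (lowest chi-square per degree of freedom 31.9).

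The 10 genes, the 12 lists (188 genes) and the tests were chosen with earlier results of these data known. Named besides the 10 were, per list, the gene with the smallest p in each of 3 contrasts (TGFB2 against NT, BMP4-TGFB2 against BMP4, BMP4 against NT) if past the threshold, and the genes with the highest correlation over the 12 libraries; Bmp1 and Ltf were added for their rank. Positions are from GENCODE M21 and promoters from RefSeq.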

Additional observations from a re-analysis of the deposited data

Results flagged for a closer look

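For 5 of the 10 genes, against 0.157% of all genes, the effect of TGFB2 differed without and with BMP4 by edgeR's test of the interaction. Both TGFB2 effects, and a small spread, had served to choose these genes, so this test is not independent of the choice. With any 1 library left out the count was 0 to 2, and nothing is read from it. The TGFB2 effect with BMP4 minus that without, on the log2 scale, was -1.31 in Adssl1, -1.68 in Clu and -1.63 in Nuak1, which were higher with TGFB2. It was 1.84 in Ogfrl1 and 2.78 in Gas7, which were lower with TGFB2. In these 5 genes, as in all 10 and in 4.4% of all genes, the BMP4 libraries lay between the NT libraries and those with TGFB2. The choice favoured genes whose TGFB2 libraries stand apart from NT and from BMP4, so nothing is read from this position. Each difference equals the BMP4 effect with TGFB2 minus that without, so the BMP4 position enters it by arithmetic. The adjusted p in edgeR was 0.03 to 0.0478, and over 20 alternatives its highest value was 0.171 in Adssl1, 0.117 in Clu, 0.204 in Nuak1, 0.239 in Ogfrl1 and 0.132 in Gas7. The sign of the difference was the same under all of them.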

How the results depend on the processing

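The count of the 10 genes called for BMP4 against NT was 9 or 10 under all 21 alternatives (9 to 10 with any 1 library left out). For BMP4-TGFB2 against TGFB2 it was 0 in all but DESeq2, which gave 1. For the interaction the 5 calls became 9 with DESeq2, 2 with limma voom, 8 with no filter on low counts, 1 without the replicate 1 libraries, 1 with limma on log2(TPM + 1), 9 with the replicate block and 0 to 2 with any 1 library left out. Same-numbered NT and TGFB2 libraries gave r of 0.3, 0.08 and 0.23, near the 0.35, 0.15 and 0.33 of BMP4 and BMP4-TGFB2. There was no stated cut-off on r, and the pairings taken through BMP4 and BMP4-TGFB2 also link NT with TGFB2 by number. Whether NT and TGFB2 libraries were paired was not tested. Block values for contrasts with both of these groups stand only here. Over all genes, DESeq2 called 295 for the interaction, limma voom 12 and the replicate block 280, against 24.

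Genes of the 12 lists called with TGFB2 on top of BMP4 numbered 51 with the replicate block and 13 to 26 with any 1 library left out; with BMP4 alone they were 54 and 14 to 31. These list counts were added as results after seeing the data. The cause of these shifts was not tested. With the replicate 1 libraries left out, Arhgap29 (adjusted p = 0.0929) with TGFB2 and Fchsd2 (0.0647) with BMP4 no longer passed. With the trended dispersion, Baiap2 with TGFB2 (0.0737) and Nuak2 with TGFB2 on top of BMP4 (0.0955) did not. None of the log2 fold changes reported changed sign where it was called. Counts of 9 to 37 in NT limit the precision for Ptpru and Adgra1, and the 41 to 101 counts with TGFB2 that for Gas7.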
